A study of Mus musculus with 42 samples.

Results

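The 10 genes described here belong to the NRF2 antioxidant pathway, and they were picked by name as known genes of that pathway from the 47643 genes of the tables. They were Nfe2l2 (which encodes NRF2), Keap1, Nqo1, Gclc, Gclm, Txnrd1, Srxn1, Prdx1, Slc7a11 and Txn1, and each had a row in the young and in the aged table. NRF2 is a transcription factor that the adaptor protein KEAP1 holds in the cytoplasm and passes to a ubiquitin ligase. Oxidants and electrophiles modify KEAP1, after which NRF2 enters the nucleus and, with a small MAF protein, binds antioxidant response elements in the promoters of genes for glutathione synthesis, thioredoxin recycling and detoxification. In macrophages, which make reactive oxygen species during phagocytosis, this pathway is known to limit oxidative damage and inflammatory gene expression.

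The study asked how ageing affects daily gene expression in immune cells. Macrophages came from C57BL/6 mice of 2 to 3 months (young) or 18 to 20 months (aged) and were taken at zeitgeber time (ZT, hours of the light schedule) 0, 4, 8, 12, 16, 20 and 24. Each of the 14 groups had 3 libraries, which made 42. The labels give no tissue of origin and do not say whether the libraries of a group came from separate mice, so p-values measure the spread between these libraries. Each age was deposited as a table of its own, so age and any batch tied to it cannot be told apart.

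Young libraries held 7433159 to 13574542 reads and aged libraries 4864402 to 15587030. Macrophage markers were abundant. Adgre1, which encodes F4/80, had a median of 5960 rescaled reads in young and 6217 in aged libraries, and the 8 macrophage markers summed to 227894 to 339265 and to 181948 to 321655. Of these 8, 0 were called higher and 2 lower in aged cells, Lyz2 (log2 difference -0.25, adjusted p = 0.0135, limma) and Cd68 (-0.18, 0.00832). Gata6 and Timd4, markers of resident peritoneal macrophages, had medians of 1237 and 2585 in young and 1421 and 1938 in aged libraries. Of the 6 markers in that list 3 were called higher in aged cells, namely Cxcl13 (2.59, 1.03e-21), Prg4 (0.26, 0.00614) and Selp (0.23, 0.0169). Timd4 (-0.37, 0.000981) and Icam2 (-0.16, 0.0409) were called lower. Transcripts of other cell types moved with age too. The B cell markers summed to 4763 to 8666 in young libraries and to 4735 to 19756 in the aged, and 8 of 8 were called higher in aged cells. In the T cell list 4 of 7 tested genes were higher, namely Cd3d, Lck, Cd2 and Cd5. Cd3e (adjusted p = 0.270, limma), Trac (0.0569) and Lat (0.0601) were not called. Cd2 held most of the list's reads, with a median of 837 in young libraries, where the list summed to a median of 935. Of 8 mast cell markers 1 was called higher (Hdc, 0.86) and 1 lower (Tpsb2, -0.47). Of 4 neutrophil markers tested 1 was called higher (S100a8, 0.79) and 1 lower (Retnlg, -1.62).

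Promoter sequences are shown first, because NRF2 is known to act through such elements. The sequences are RefSeq promoters on GRCm38.p6, from 250 bases before to 50 after each start, and 9 members had 11 of the 32851 promoters searched. The core of the antioxidant response element, TGACNNNGC on either strand, was in 5 members (Nfe2l2, Gclm, Txnrd1, Srxn1 and Prdx1) and in 12.4% of all promoters. A member counted if any of its promoters held the core, whereas the percentage counts promoters, so the units differ. The Srxn1 match lay after its start. That of Txnrd1 lay before a start inside the gene's span (82833951 to 82897712). In the 3 stretches below, each printed on the strand of its gene, capitals mark that core, which reads on the opposite strand.
Gclm, chr3:122245398-122245456, plus strand: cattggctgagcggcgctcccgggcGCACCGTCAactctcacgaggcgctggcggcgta
Prdx1, chr4:116685441-116685499, plus strand: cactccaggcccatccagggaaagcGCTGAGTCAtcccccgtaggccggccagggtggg
Txnrd1, chr10:82859089-82859147, plus strand: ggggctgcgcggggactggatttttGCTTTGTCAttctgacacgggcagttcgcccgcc

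Slc7a11 had no match to that core in its window. It held the amino acid response element core TGATGNAA, the kind of site bound by ATF4, a factor known to drive Slc7a11 in amino acid shortage. That core was in 3.97% of all promoters and in 1 member, where it occurred in both orientations with 11 bases between the matches. Capitals mark them.
Slc7a11, chr3:50443628-50443704, minus strand: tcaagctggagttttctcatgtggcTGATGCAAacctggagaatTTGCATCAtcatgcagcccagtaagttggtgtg
The E-box CACGTG, the core motif bound by CLOCK and ARNTL, was in 7.15% of all promoters and in 0 members. A match is a description of letters, and its absence says nothing of a factor's binding elsewhere.

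Levels are given as rescaled reads, which are the reads recovered from the tables and divided by 1 factor per library that puts all 42 on a common scale. The libraries hold reads from transcript 3' ends, so reads were not divided by length. The members spanned a wide range. Txn1, the thioredoxin that reduces protein disulfides, was highest, with 4702 ± 502 (SD, n = 21) in young and 5306 ± 1026 in aged libraries. Prdx1, a peroxiredoxin that reduces hydrogen peroxide with electrons from thioredoxin, followed with 3493 ± 233 and 3391 ± 317, and its range overlapped that of Txn1 in both ages. Both have processed pseudogene copies, and the labels do not say how reads matching several places were counted.

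The sensor and the factor came next. Keap1 (chromosome 9, 21229730 to 21239361, minus strand of GRCm38) had 918 ± 102 (SD, n = 21) rescaled reads in young and 938 ± 102 in aged cells. Nfe2l2 (chromosome 2, 75675513 to 75704641, minus strand) had 671 ± 70.5 and 736 ± 109. The libraries of these neighbours overlapped in both ages. Then came Txnrd1, the cytosolic thioredoxin reductase, with 361 ± 35.5 and 387 ± 82.6, and Srxn1, the sulfiredoxin that repairs overoxidised peroxiredoxins, with 353 ± 49.9 and 380 ± 108. These overlapped throughout.

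The subunits of glutamate-cysteine ligase, the rate-limiting enzyme of glutathione synthesis, were lower. Its catalytic subunit Gclc had 249.6 ± 31.0 (SD, n = 21) in young and 274 ± 54.1 in aged cells, and its modifier subunit Gclm had 213 ± 31.0 and 233 ± 47.4, again overlapping. Exons of Keap1 and Gclm overlap the antisense genes Gm16754 and Gm17494, and those of Gclm also the pseudogene Gm6061. The overlaps did not cover the members' 3' ends, and whether counting used strand is not given here.

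The remaining pair had few reads. Slc7a11, the cystine importer of system xc- that supplies cysteine for glutathione, had 73 reads in the 21 young and 288 in the 21 aged libraries. Nqo1, the quinone reductase often used as a marker of NRF2 activity, had 41 and 34 reads in all. It was at 0 in 11 young and 10 aged libraries and reached no more than 6.31 and 5.48 rescaled reads. The young libraries had 5.03, 6.31 and 4.92 at ZT24 and 0 in all 3 libraries at ZT0 and at ZT8. Nqo1 was below the filter and was not tested in the main fits.

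**Figure D1:**
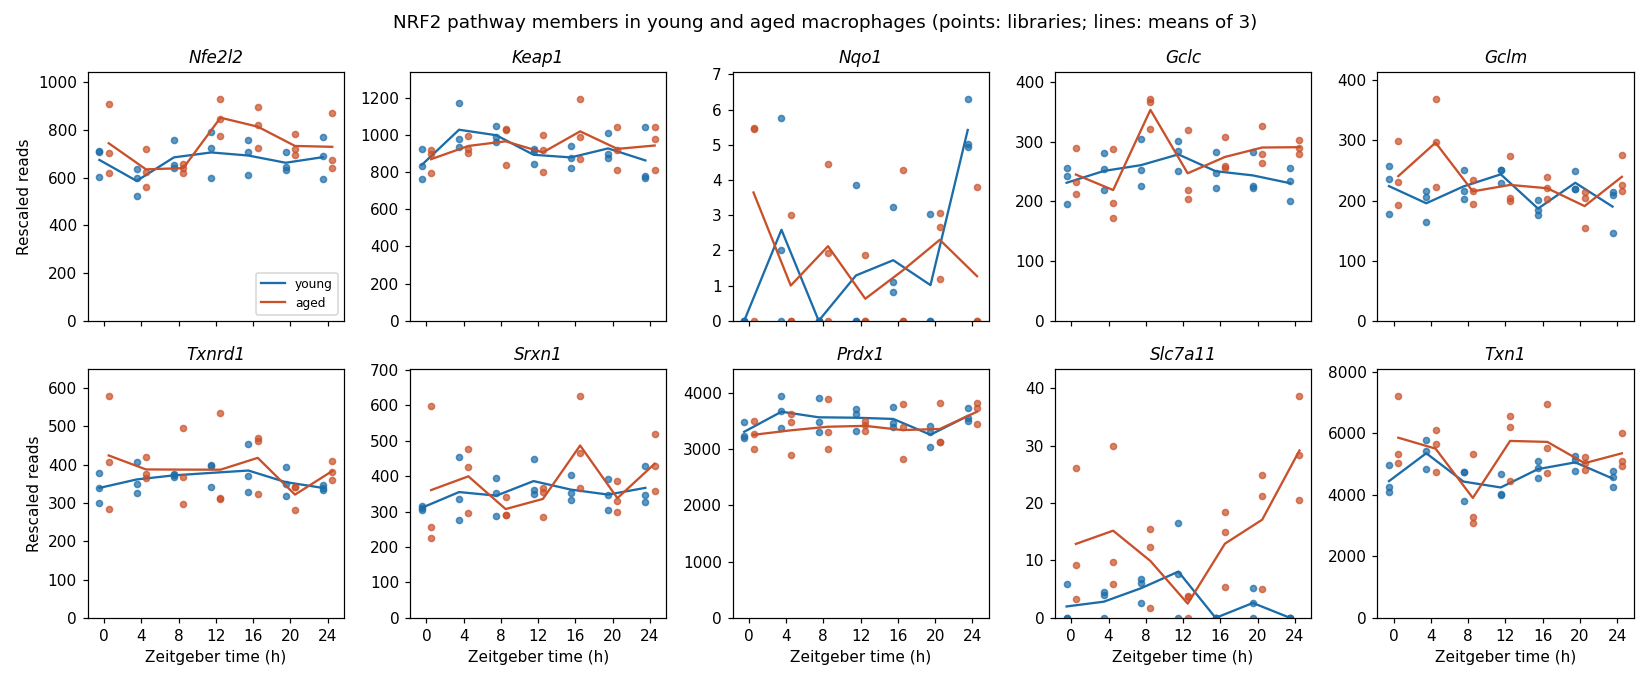
Rescaled reads of the 10 members (vertical axis, from 0, a scale per gene) at each zeitgeber time in hours, with a point per library and lines through the means of 3 libraries in young (blue) and aged (orange) cells. Over both ages the group means run from 3250 to 3661 for Prdx1 and from 839 to 1028 for Keap1. Nqo1 stays below 7, and Slc7a11 lies between 0 and 16.5 in young but reaches 38.7 in aged libraries.

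Slc7a11 was the member that differed most between ages (chromosome 3, 49892526 to 50443614, minus strand of GRCm38). In young cells its rescaled reads were 5.98, 0 and 0 at ZT0, 4.00, 0 and 4.47 at ZT4, 2.67, 6.16 and 6.70 at ZT8, and 0, 16.5 and 7.73 at ZT12. They were 0 in all 3 libraries at ZT16, 0, 5.19 and 2.62 at ZT20, and 0 in all 3 at ZT24. In aged cells they were 3.37, 26.2 and 9.14 at ZT0, 30.0, 5.85 and 9.71 at ZT4, 1.77, 12.4 and 15.6 at ZT8, and 0, 3.71 and 3.75 at ZT12. Most young libraries thus held few or no Slc7a11 reads, while aged ZT12 was the low point of the older cells. Aged values were 14.96, 18.4 and 5.41 at ZT16, 5.09, 21.3 and 24.96 at ZT20, and 38.7, 28.3 and 20.5 at ZT24.

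The aged mean of Slc7a11 was 14.2 ± 10.9 (SD, n = 21) against 2.95 ± 4.14 in young libraries, a ratio of 4.83. A two-sided permutation test over the libraries, added for this gene after its values were seen, gave p = 8e-05 (100000 resamples), and p = 0.0001 with ages permuted within each time only. Of the 21 aged libraries 20 lay above the young median, which was 0, and 8 above the highest young library. The aged mean was higher at 6 of 7 times, the exception being ZT12, and at 3 times the libraries of the ages did not overlap. Of these times, ZT16 and ZT24 had 0 reads in all young libraries. Over the genes that passed the filter, which Slc7a11 did not, 17.3% of pairs of a gene and a time did not overlap.

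Because its mean over all libraries was under 10, Slc7a11 was not in the main test of level, and the fit without that filter was added after seeing the data. In it the log2 difference was 2.17 ± 0.38 (SE), with an adjusted p of 9.95e-05 (limma), where 11.1% of genes were called. The log2 difference was 3.08 by edgeR (adjusted p = 1.19e-07), 2.95 by DESeq2 (3.61e-07) and 1.18 with a pseudocount of 5 (8.01e-05). With any 1 library left out the adjusted p of limma was between 3.6e-05 and 0.00023. At ZT24 no read was seen in the young libraries. With a floor of 3 counts over that group, or 1.01 rescaled reads, the aged mean of 29.2 was 28.7 times the floor. The floor bounds the young value only, and the aged libraries at ZT24 ran from 20.5 to 38.7. The unfiltered limma fit gave an adjusted p of 0.016 there, with 0.661% of genes called. That call was lost without young ZT24 replicate 1 (0.0534), replicate 2 (0.0533) or replicate 3 (0.0580), and without aged ZT24 replicate 1 (0.0792). At ZT0 the mean was 12.9 in aged and 1.99 in young libraries, which overlapped. The log2 difference at ZT0 was 2.48 (adjusted p = 0.370, limma without the filter), where 63 of 25110 genes were called.

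Other cell types' transcripts are given beside this result. When marker scores of B, T and mast cells entered the fit as covariates, the Slc7a11 difference was 2.19 (adjusted p = 0.0269), against 2.17 without them. At ZT24 the difference was 4.94 with the covariates and 4.87 without, and the call was lost (adjusted p = 0.111). The 7 mesothelial and stromal markers summed to 0 to 26.4 rescaled reads in young and 24.7 to 126 in aged libraries. Of these, Dcn, a proteoglycan of fibroblasts, had a median of 2.32 in young and 37.6 in aged libraries. The mesothelial gene Msln was at 0 in 21 of 21 young and 11 of 21 aged libraries, with 36 reads in all in the aged. Upk3b of the same list had 16 reads in young and 81 in aged libraries. All 7 markers had more reads in aged libraries. The part of such cells in the Slc7a11 result was not tested. In bulk RNA, fewer cells of a type and less RNA per cell cannot be told apart.

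The first test asked whether the members had a daily rhythm, within each deposited table. In young cells 8 members passed the filter (a mean of at least 10) and 0 of 8 were called by limma at an adjusted p under 0.05, where 3.62% of all genes were called. At an unadjusted p under 0.05 it was again 0, against 17.2% of genes. The fitted 24 h amplitude, mean to peak on the log2 scale, was between 0.05 and 0.11 with a median of 0.07, against 0.14 for all genes. Such an amplitude is never below 0 and grows with noise. The median of all genes covers genes down to a mean of 10, whereas these members averaged 213 to 4702 rescaled reads. The medians were thus not compared at matched levels. The lowest adjusted p, that of Keap1, was 0.489. The daily course of these transcripts in young macrophages was thus nearly flat beside that of the clock genes in the same libraries, where the fitted peak-to-trough fold was 109 for Nr1d1, 19.8 for Dbp and 4.12 for Arntl.

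In aged cells Slc7a11 passed the filter too, through its higher level there, and 0 of 9 members were called by limma, where 0.308% of all genes were. Unadjusted, Nfe2l2 and Slc7a11, 2 of 9, were under 0.05 (9.01% of genes). Nfe2l2 had means of 635 ± 80.9 (SD, n = 3) at ZT4 and 641 ± 17.5 at ZT8, and of 852 ± 78.6 at ZT12 and 815 ± 87.4 at ZT16. The 3 libraries at ZT12 lay above those of ZT4 and ZT8. The fitted peak-to-trough fold was 1.28 with a peak at ZT 16.3 ± 1.21 h (SE). Its adjusted p was 0.477. For Slc7a11 the fitted fold was 3.95 with a peak at ZT 23.1 ± 1.46 h. Its adjusted p was 0.481. The other members had amplitudes between 0.01 for Prdx1 and 0.18 for Gclm. edgeR and DESeq2 also called 0 members in either age. Over all genes edgeR called 467 of 12113 in young and 36 of 12016 in aged cells, and DESeq2 696 of 10704 and 91 of 10609. At an unadjusted p under 0.05 each tool had 0 members in young and 2 in aged cells. Over all genes that was 2059 and 1109 by edgeR and 2195 and 1179 by DESeq2. Nr1d1, Dbp and Arntl had folds of 84.0, 16.7 and 4.11 in aged cells.

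**Figure D2:**
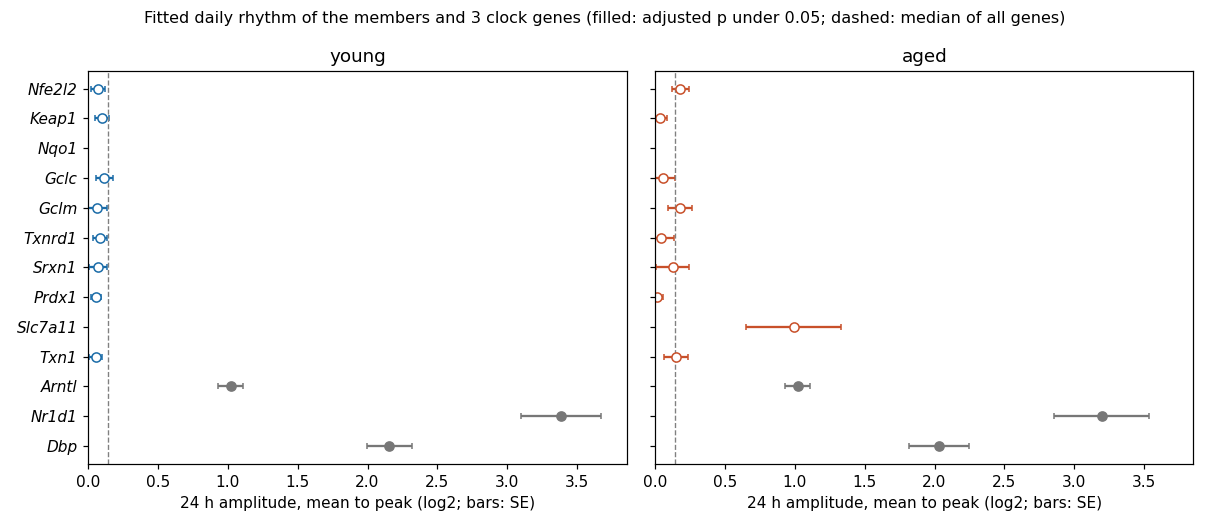
Fitted 24 h amplitude (mean to peak, log2; bars are SE) of the members tested and of 3 clock genes in young (left) and aged (right) cells, with filled points for an adjusted p under 0.05 and a dashed line at the median of all genes. All 8 members lie below the dashed line in young cells (0.05 to 0.11), and in aged cells the open points lie between 0.01 and 0.18 except that of Slc7a11 (0.99), while the clock genes lie at 1.02 and above. The dashed line is not matched to the members' read levels.

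Rhythms were also compared between ages in 1 fit. For 8 members tested, 0 were called different by limma, as were 0% of all 12086 genes. At an unadjusted p under 0.05 there were 0 members and 4.09% of genes. The lowest adjusted p of a member by limma was 0.999. edgeR and DESeq2 called 0 members too, where they called 4 of 12086 and 7 of 11612 genes.

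The next test compared the mean level over the day. Of the 8 members tested, 0 were called by limma at an adjusted p under 0.05, where 23.7% of all genes were called, 12% as higher and 11.7% as lower in aged cells. Unadjusted, 2 of 8 were under 0.05 against 34% of genes, and edgeR and DESeq2 each called 1 of 8, where they called 23.8% and 25.3% of all genes. The log2 difference, aged minus young, was above 0 for 7 of 8, with a median of 0.10 against 0.00 for all genes. These were small differences: the highest was that of Txn1 and the lowest that of Prdx1.

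Txn1 had 3797, 4753 and 5785 rescaled reads as lowest, median and highest of the young libraries and 3092, 5249 and 7229 in the aged. The aged range covered the young range at both ends. The log2 difference was 0.15 ± 0.06 (SE, 95% interval 0.03 to 0.28), with an adjusted p of 0.0593 by limma, 0.0473 by edgeR and 0.0316 by DESeq2. With limma it was called when young ZT0 replicate 3 was left out, and likewise for aged ZT0 replicate 3, ZT4 replicate 3, ZT8 replicate 1, ZT8 replicate 2, ZT12 replicate 1 or ZT16 replicate 3 (0.0216 to 0.0470).

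Nfe2l2 had 524, 654 and 793 rescaled reads as lowest, median and highest in young and 560, 721 and 933 in aged libraries. The log2 difference was 0.13 ± 0.05 (95% interval 0.02 to 0.23, adjusted p = 0.083), and 0.0452 without aged ZT0 replicate 3. Keap1 differed by 0.03 ± 0.05 (interval -0.07 to 0.13, adjusted p = 0.708), so a change in the sensor's transcript beyond that interval was not seen.

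The enzymes gave differences of similar size. Gclc differed by 0.12 ± 0.07 (adjusted p = 0.225), Gclm by 0.11 ± 0.07 (0.277), Txnrd1 by 0.08 ± 0.08 (0.524) and Srxn1 by 0.07 ± 0.09 (0.640), each in log2 with its SE. Prdx1 differed by -0.05 ± 0.04, with an interval of -0.13 to 0.04 (adjusted p = 0.478). These intervals include 0 and leave room for differences of a size that the test would not call.

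Marker scores moved the level results. With B, T and mast cell scores as covariates, limma called 4 of 8 members higher in aged cells, where 10.8% of all genes were called and 5.23% were called higher. These were Srxn1 (log2 0.43, adjusted p = 0.00666), Nfe2l2 (0.27, 0.0179), Gclm (0.35, 0.0198) and Txn1 (0.26, 0.0467). Prdx1 turned to 0.06 (0.682). The B and T cell scores rest on lists whose called genes were all higher in aged cells. The mast cell list was mixed, with 1 of 8 called higher and 1 lower. What part of the members' values came from those cells was not tested.

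**Figure D3:**
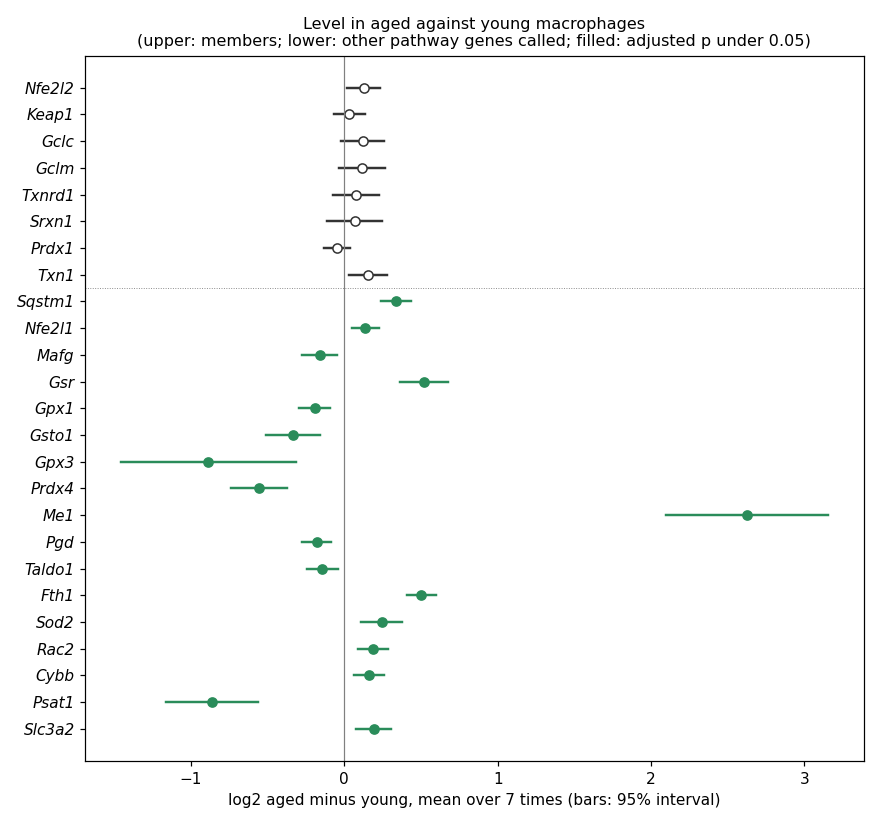
Log2 difference in mean level over the 7 times, aged minus young (horizontal axis, bars are 95% intervals), for the 8 members tested (upper, black) and the other pathway genes called (lower, green), with filled points for an adjusted p under 0.05. The members lie between -0.05 and 0.15 with open points, while Me1 lies at 2.63.

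The ages were also compared at each time. Of 56 tests of a member at a time 0 were called by limma, where 1.86% of all such tests were, and 4 were under 0.05 unadjusted (12.9% of all). By time the share of genes called was 0.794% at ZT0, 1.35% at ZT4, 4.01% at ZT8, 2.08% at ZT12, 1.06% at ZT16, 1.65% at ZT20 and 2.09% at ZT24. In 35 of 56 the aged mean was higher. Gclm at ZT4 had 206, 216 and 164 rescaled reads in young and 297, 370 and 222 in aged libraries, a log2 difference of 0.58 ± 0.19 (SE, adjusted p = 0.127). Gclc at ZT8 had 304, 226 and 253 against 372, 367 and 321, a difference of 0.44 ± 0.18 (0.182). In both cases the libraries of the ages did not overlap. That held for 9 of the 56 pairs of a member and a time, 8 with the aged libraries higher and 1, Gclm at ZT20, with them lower, and for 17.3% of such pairs over all genes tested, so the members' share was near the background.

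The other limma tests at an unadjusted p under 0.05 were those of Txn1 at ZT12 and ZT0. At ZT12 it had 4685, 4045 and 3999 rescaled reads in young and 4468, 6226 and 6577 in aged libraries, a log2 difference of 0.42 ± 0.16 (SE, adjusted p = 0.206). Aged replicate 1 lay within the young range, and without it the adjusted p was 0.0465. It was 0.0483 with the marker scores as covariates. At ZT0 the difference of Txn1 was 0.38 ± 0.16 (adjusted p = 0.332).

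Aged libraries of the same time differed more among themselves than young ones. The SD between libraries of a group, on log2(rescaled reads + 1), was larger in aged cells for 8 of 8 members and for 66.3% of all genes. It was 0.145 in young and 0.325 in aged cells for Txnrd1, 0.212 and 0.381 for Srxn1, 0.124 and 0.266 for Txn1, and 0.0892 and 0.150 for Prdx1. The median ratio was 1.48 for the members and 1.15 for all genes, given here without a test.

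A single library contributed to this. Aged ZT0 replicate 2 had 580 rescaled reads of Txnrd1, 599 of Srxn1, 910 of Nfe2l2 and 7229 of Txn1, against 284 and 408, 257 and 227, 703 and 621, and 5317 and 5038 in replicates 1 and 3. It was the highest of its group for these genes. Without it, an alternative chosen after seeing the data, the SD was larger in aged cells for 7 of 8 members and 64.6% of genes, and the median ratio was 1.28 against 1.13. The ratio of Srxn1 went from 1.80 to 1.24, that of Nfe2l2 from 1.15 to 0.98, that of Txnrd1 from 2.25 to 2.00 and that of Txn1 from 2.14 to 2.04.

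**Figure D4:**
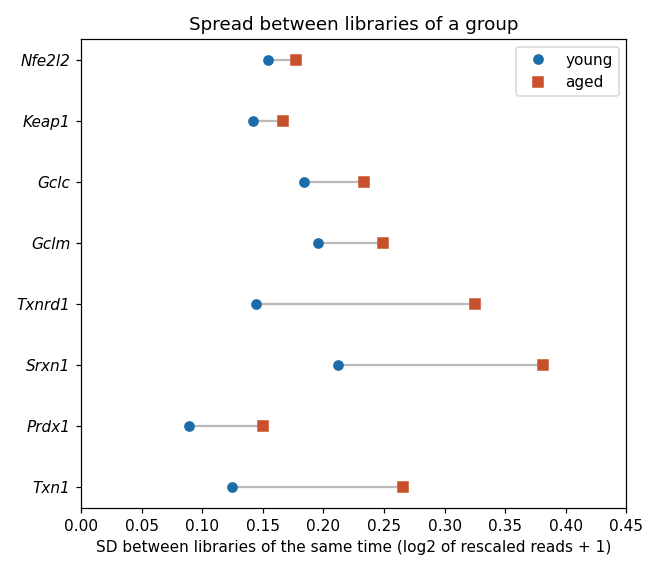
SD between libraries of the same time, on log2(rescaled reads + 1), for the 8 members tested in young (blue circles) and aged (orange squares) cells. The aged value is the larger in all 8 members, with the widest gaps in Txnrd1 (0.145 and 0.325) and Srxn1 (0.212 and 0.381).

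Profiles were compared for Nfe2l2 and Txnrd1. Over the 14 group means Nfe2l2 had a Pearson r between -0.23 (Prdx1) and 0.40 (Txn1) with the other tested members, and Txnrd1 one between -0.07 (Prdx1) and 0.50 (Gclm). The genes whose profiles were most like that of Nfe2l2 were Cd244a (0.88), Dnajb5 (0.87) and Slc11a2 (0.84). For Txnrd1 they were Spsb2 (0.83), Fgr (0.80) and Tma16 (0.80). These are descriptions over points that share libraries within a group, and none was computed for Nqo1, which was near 0.

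Other genes of the pathway were taken from 8 lists of 72 genes beside the members, of which 63 were tested for level. In aged cells 9 were higher and 8 lower, or 27.0% against the 23.7% of all genes, with a median log2 difference of 0.01. Among 9 tested regulators 2 were higher and 1 was lower. Sqstm1 encodes p62, which binds KEAP1 and sends it to autophagy, and had 745, 888 and 1037 rescaled reads as lowest, median and highest in young against 863, 1105 and 1315 in aged libraries. It rose by 0.34 ± 0.05 in log2 (SE, adjusted p = 1.23e-06) and was higher at 7 of 7 times. Nfe2l1, a relative of NRF2, rose by 0.14 ± 0.04 (0.0139). Mafg, a small MAF partner of NRF2, differed by -0.16 ± 0.06 (0.0317).

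In the glutathione list 1 of 11 was higher and 3 were lower. Gsr, the reductase that regenerates glutathione, rose by 0.52 ± 0.08 (SE, adjusted p = 1.5e-06), from a median of 967 to 1463 rescaled reads. Lower were the peroxidases Gpx1 (-0.19, adjusted p = 0.00348) and Gpx3 (-0.89 ± 0.28, 0.0176) and the transferase Gsto1 (-0.33, 0.00384). The call of Gpx3 was not made by edgeR (0.122) or DESeq2 (0.0936). Of 9 thioredoxin and peroxiredoxin genes 0 were higher and 1 lower: Prdx4, the peroxiredoxin of the endoplasmic reticulum, fell by 0.56 ± 0.09 (8.67e-06).

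The largest difference in these lists was in the NADPH and detoxification genes, where 1 of 11 was higher and 2 were lower. Me1, the cytosolic malic enzyme that makes NADPH, had 8.04, 29.4 and 67.1 rescaled reads as lowest, median and highest in young and 24.9, 195 and 1285 in aged libraries, of which 20 of 21 lay above the highest young library. It rose by 2.63 ± 0.26 in log2 (SE, adjusted p = 3.85e-10). Pgd and Taldo1 of the pentose phosphate pathway differed by -0.18 (0.00364) and -0.14 (0.0360).

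Among 6 heme and iron targets 1 was higher. Fth1, the ferritin heavy chain that stores iron, had 9238, 10876 and 12181 rescaled reads as lowest, median and highest in young and 12674, 14959 and 21131 in aged libraries, with no overlap. It rose by 0.50 ± 0.05 (SE, adjusted p = 1.15e-10), and it too has pseudogene copies. Hmox1, the heme oxygenase known as an NRF2 target, differed by 0.10 ± 0.13 (0.642). Sod2, the mitochondrial superoxide dismutase, was the called gene of 3 and rose by 0.24 (0.00542). Of 6 NADPH oxidase genes, which make superoxide, 2 were higher: Rac2 (0.19, 0.00404) and the catalytic subunit Cybb (0.16, 0.0126).

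Of 8 tested genes in the list of ATF4 and its targets 1 was higher and 1 lower. Slc3a2, the heavy chain with which Slc7a11 forms system xc-, had 568, 681 and 924 rescaled reads as lowest, median and highest in young and 547, 767 and 1052 in aged libraries. It rose by 0.19 ± 0.06 (SE, adjusted p = 0.00975). Psat1, an enzyme of serine synthesis, fell by 0.86 ± 0.15 (1.79e-05). Atf4 itself differed by 0.11 ± 0.07 (0.294).

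Calls in these lists depended in part on the marker scores and on single libraries. With the scores as covariates the level calls of 3 genes were lost with log2 differences near 0, namely Mafg (0.0057, adjusted p = 0.982), Pgd (-0.0089, 0.961) and Taldo1 (0.021, 0.904). Those of Gpx1 (-0.10, 0.475), Gsto1 (-0.22, 0.362), Gpx3 (-0.80, 0.30) and Rac2 (0.13, 0.310) were lost with the same sign as without the covariates. Mafg was not called (highest 0.0627) without young ZT4 replicate 2, ZT8 replicate 3, ZT12 replicate 1 or ZT20 replicate 1, or aged ZT0 replicate 1, ZT4 replicate 3, ZT16 replicate 3, ZT20 replicate 1 or ZT24 replicate 2. Taldo1 was not called (highest 0.0692) without young ZT4 replicate 2, ZT8 replicate 2, ZT16 replicate 2 or 3, ZT20 replicate 1 or 2 or ZT24 replicate 2, or aged ZT0 replicate 1, ZT4 replicate 3, ZT8 replicate 2, ZT12 replicate 3, ZT16 replicate 1, ZT20 replicate 2 or ZT24 replicate 2, nor without all ZT0 libraries (0.0730). Neither was called with no filter on low values (0.0656 and 0.0737).

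Daily rhythms were called for 5 of these 63 genes in young cells (3.62% of all genes) and for 0 in aged cells (0.308% of all genes). At an unadjusted p under 0.05 in limma it was 5 in aged cells, against 9.01% of all genes. Mgst1, a microsomal glutathione transferase, reached its peak at ZT 3.52 ± 0.680 h with a fitted fold of 1.49 (SE, adjusted p = 0.00334). Ephx1, an epoxide hydrolase, had a fold of 1.504 (0.0135), and 0.0570 without ZT12 replicate 2 or 0.0739 without the ZT24 libraries. Slc3a2 peaked at ZT 5.05 ± 0.769 h with a fold of 1.36 (0.0206), and 0.0631 without ZT4 replicate 2. Mafg (fold 1.29, 0.0333) was not called without any 1 of ZT0 replicates 1, 2 and 3, ZT4 replicate 1, ZT12 replicates 1 and 2, ZT16 replicate 1 and ZT24 replicate 3 (up to 0.0836). Ncf1 (fold 1.22, 0.0354), a NADPH oxidase subunit, was not called without any 1 of replicates 2 and 3 of ZT0, ZT16 and ZT24 or replicates 1 and 2 of ZT12 (up to 0.117). With no filter on low values Mafg (0.0840) and Ncf1 (0.0716) were not called, nor without the ZT0 libraries (0.170 and 0.103), and Ncf1 was not called without the ZT24 libraries (0.107). Fitted with 7 time levels in place of the cosine, Ephx1 (0.0914), Slc3a2 (0.139), Mafg (0.146) and Ncf1 (0.267) were not called. The test of a difference in rhythm between ages called none of these genes, as it called 0 of all genes.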

How the data were processed

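Total RNA of macrophages was made into QuantSeq 3' end libraries, per the labels' protocols. Per the submitters' processing notes, STAR, the build mm10 and DESeq2 are named, without versions or roles. The counter, like the annotation, is not given in the sources used here. As for values, the authors deposited 1 table per age of a normalized signal, whole multiples of a step in each library. Division by the step returned whole reads for 100.0% of values (tolerance 0.001). Of 47643 genes 47224 matched a symbol.

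Rhythms were fitted in each table by limma-trend on log2(value + 1), for genes averaging at least 10 (limma 3.58.1, R 4.3.3), with a 24 h cosine and sine and a moderated F-test. For comparisons across ages, the median of ratios put the recovered reads of the 42 libraries on 1 scale. Levels were fitted with 14 group means. The difference in rhythm was fitted with a cosine and sine for each age and an F-test of whether these terms differed between ages. Benjamini-Hochberg adjustment covered all genes tested, threshold 0.05. Fold changes on this scale understate those of genes with few reads. edgeR 4.0.16 (quasi-likelihood) and DESeq2 1.42.0 on recovered reads, a pseudocount of 5, no filter or a mean of at least 50, other scalings, a replicate block, array weights, 7 time levels, marker covariates and each library left out were alternatives. Scripts were tested on simulated data. Positions are those of GENCODE on GRCm38, the build mm10 names. The members and lists were chosen with earlier results of these data known. Besides the members and cell type markers, up to 4 called genes of lowest p for level were named in each list. Up to 2 called rhythmic genes in each list and age, 3 clock genes, and the 3 genes most like Nfe2l2 and Txnrd1 were named too. Hmox1, an NRF2 target, and Atf4, whose targets formed a list, were not called and were named outside these rules. The reads carry no molecular identifiers, so floors cover counting error only.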

Additional observations from a re-analysis of the deposited data

How the results depend on the processing

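No setting called a member rhythmic in either age or different in rhythm between ages, and the count stayed at 0 with each library left out. Over all genes, rhythms called in young cells were 438 and became 236 without a filter on low values, 262 without the ZT0 libraries and 696 by DESeq2; in aged cells 37 became 91 by DESeq2. Differences in rhythm went from 0 genes to 7 with a pseudocount of 5, 5 with upper quartile scaling, 1 with array weights, 3 with 7 time levels, 4 without the ZT0 libraries, 4 by edgeR and 7 by DESeq2. Members called for level went from 0 to 1 without a filter, with array weights, by edgeR or by DESeq2, and to 4 with the marker covariates, which also took the genes called from 2863 to 1300. With array weights Txn1 was the one called (adjusted p = 0.0108), and without a filter Slc7a11. Members called at a single time went from 0 to 1 without a filter (Slc7a11 at ZT24) or with the covariates (Txn1 at ZT12), and the calls over all genes and times from 1576 to 2448 with array weights and 1038 with the covariates. With the covariates the sign turned for Prdx1 (0.055), Mafg (0.0057) and Taldo1 (0.021). With 1 library left out in turn, calls were 322 to 504 in young and 26 to 45 in aged rhythms, 0 to 5 for the difference in rhythm, 0 to 2 members and 2636 to 2994 genes for level, and 0 to 1 members and 1188 to 1942 calls at single times. Replicate numbers did not pair the libraries: same-numbered libraries of 1 age had a median correlation of -0.009, and 13 of 42 correlated best with their own number. With the number as a block, 387 young and 37 aged rhythms, 0 differences in rhythm and 2836 genes for level were called, with 0 members in each. Depth limits Nqo1, with 41 and 34 reads in all, and Slc7a11 in young cells, with 73.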
